A study of Homo sapiens with 4 samples.

Results

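Amino acid transporters were taken as every gene whose symbol begins with SLC1A, SLC3A, SLC6A, SLC7A, SLC36A, SLC38A or SLC43A, and 59 of the 18417 genes measured were members. A gene counted where the array annotation gave a probe set a single symbol, and a gene with more than 1 such probe set took the values of the brightest by mean over the 4 arrays. The arrays held RNA of cells labelled PC3, a prostate cancer line grown from a bone metastasis. VC-PC3 cells carried an empty vector (pBABE, labelled PC3-SCR, 2 arrays) and PDEF-PC3 cells over-expressed PDEF, an ETS transcription factor of luminal prostate cells (2 arrays). All cells were grown in DMEM/F12 medium with fetal bovine serum. Signals are on the log2 scale, so that a difference of 1 is a 2-fold change, and a log2 fold change is the PDEF-PC3 mean minus the VC-PC3 mean. The methods give the PDEF line as stably transfected and do not say whether it was 1 clone. The prefix is wider than its name. It takes in 3 monoamine carriers (SLC6A2, SLC6A3, SLC6A4), carriers of GABA, betaine, taurine and creatine, and SLC7A6OS, a neighbour of SLC7A6 that is no transporter.

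Facts of the whole series bear on every value below. SPDEF, the gene of PDEF, was 1.70-fold higher in PDEF-PC3 (adjusted p = 0.000563 from limma). Its signals were 6.85 and 6.73 there, against 5.99 and 6.06 in VC-PC3, which were only just above the gauge of background given below. CTNNA1 and STAT3, genes known to be deleted in PC3 cells, gave 4.07 to 4.77 in the control arrays but 9.05 to 9.86 with PDEF, against the label of those cells. Differences that follow PDEF and differences between cells of other kinds therefore cannot be told apart. Of the epithelial markers, EPCAM fell from 7.81 and 7.74 to 5.65 and 6.53 and KRT8 fell by 0.64, while KRT18 did not pass the test. Of 7 kidney and fetal markers measured, 3 were higher and 2 lower in PDEF-PC3, with LIN28B at 8.43 and 8.69 against 3.79 and 3.08, and the log2 of their summed signal was 8.24 to 8.31 in VC-PC3 and 9.36 to 9.51 in PDEF-PC3. Without LIN28B, the other 6 summed to 8.20 to 8.25 and to 8.29 to 8.30. Among these, WT1 and EMX2 rose while PAX8 and CDH6 fell, and EMX2 and CDH6 were near background in both groups. The part of such markers in the transporter values was not tested. Of 4 stromal markers 2 were lower (COL1A1 and LUM), as were 2 of 3 endothelial markers (PECAM1 and VWF) and 0 of 3 leukocyte markers. LUM and each of the endothelial and leukocyte markers were near background in both groups. As a gauge of background, the highest of 341 olfactory receptor genes reached 5.94 to 6.01 in VC-PC3 and 5.65 to 5.75 in PDEF-PC3, and a gene was called near background in a group unless both arrays exceeded it. Separate cultures are named for the arrays in no source, and p-values then measure only a spread that may be technical.

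Amino acids cross membranes on carriers of several families that differ in what drives them. SLC1 carriers bring in glutamate or small neutral amino acids with sodium, SLC6 carriers use sodium and chloride, and SLC38 carriers move glutamine, alanine and their like with sodium. Most SLC7 proteins are exchangers that need a heavy chain from the SLC3 family to reach the surface, while the cationic amino acid transporters of the same family work alone. Tumour cells are known to draw leucine through SLC7A5, glutamine through SLC1A5 and SLC38A2, and cystine for glutathione through SLC7A11.

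In PDEF-PC3 as compared to VC-PC3 cells, members changed in both directions. Of the 59 genes, 13 were higher, 13 were lower and 33 stayed above the threshold, an adjusted p of 0.05 from limma. In such bulk RNA, fewer cells of a kind and less RNA per cell cannot be told apart. The genes that passed are 44.1% of members, against 50.7% of all genes (26.7% higher and 24% lower). Nothing is read from that difference, since members were more often dim. Near background in both groups were 30 of 59 members and 7633 of all 18417 genes. At least 2-fold changes were found for 12 members (20.3%, against 14.7% of all genes). Of the 59 members, 9 were at least 2-fold higher and 3 at least 2-fold lower. Among all genes these shares were 8.67% higher and 6.07% lower. Members had a median log2 fold change of -0.05, as did all genes. Many members were dim. Both groups were near background for 30 of the 59, and 26 of these did not pass the test. Both groups were above background for 19 members, and for the remaining 10 only 1 group was. Arrays of a group lay close together, with a median gap of 0.09 and a largest gap of 0.65, that of SLC7A3 in VC-PC3. No overlap between the groups was seen for 43 members (72.9%, against 74.7% of all genes). The lower members were fewer when a PDEF-PC3 array was left out, and so were the lower genes among all genes.

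**Figure D1:**
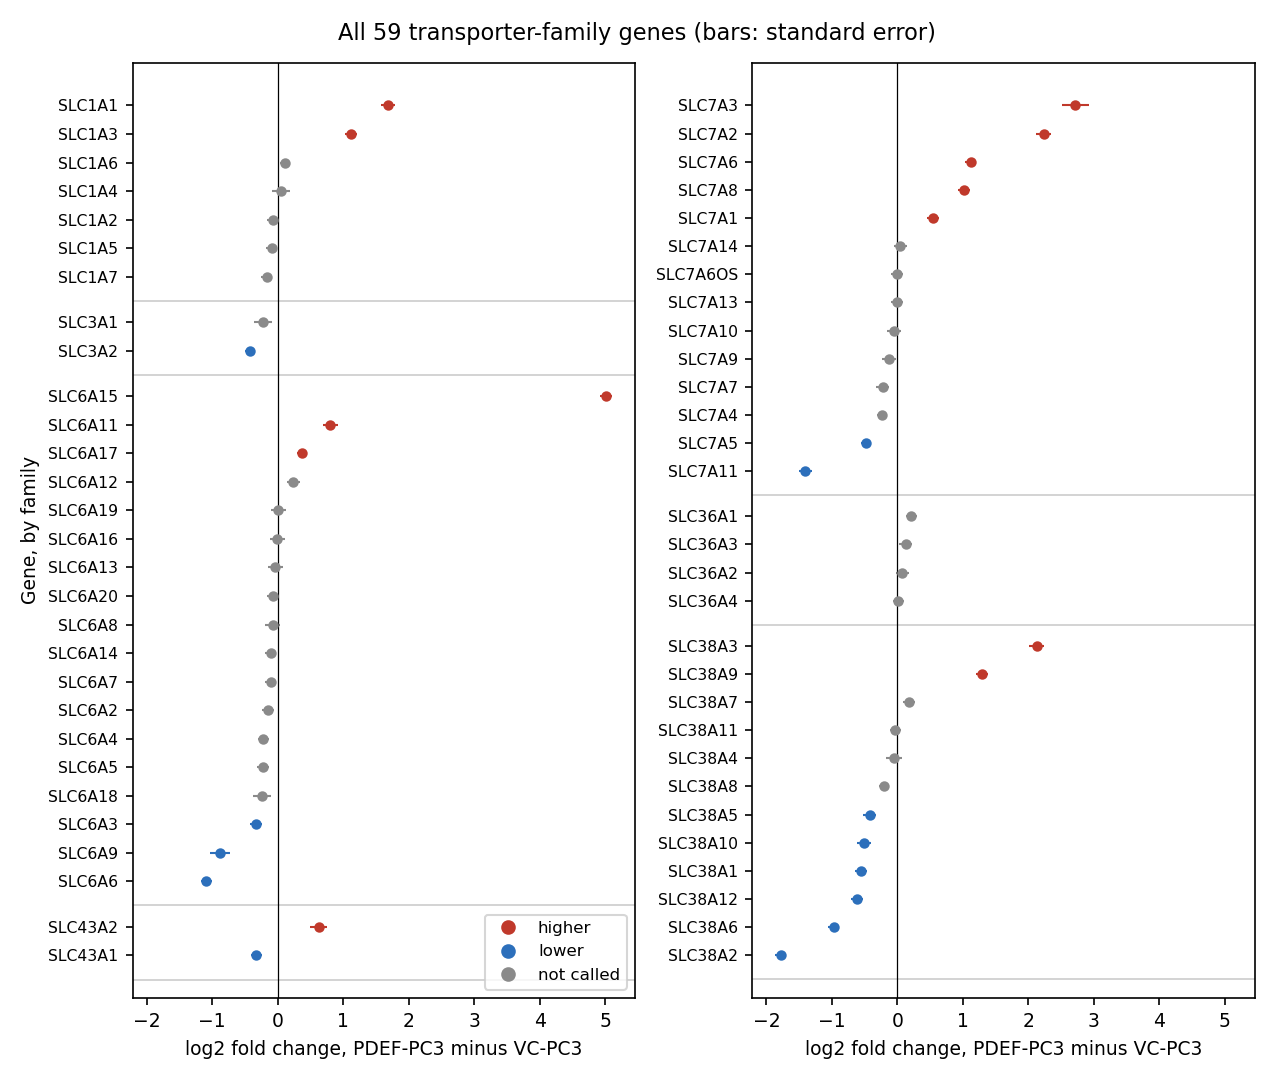
Change on the log2 scale, PDEF-PC3 minus VC-PC3 (horizontal axis), of the 59 transporter-family genes (vertical axis, grouped by family). Bars are standard errors of the change from 2 arrays a group. The 13 genes higher at an adjusted p under 0.05 (red) reach up to SLC6A15 at 5.01, the 13 lower ones (blue) reach down to SLC38A2 at -1.78, and the other 33 are grey.

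**Figure D2:**
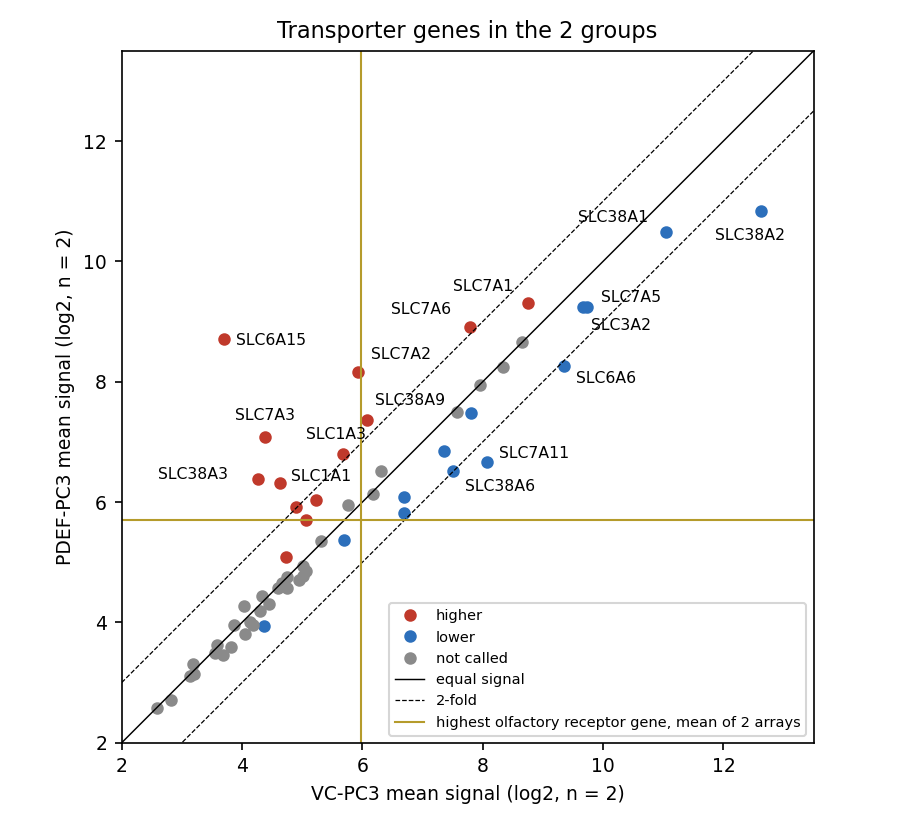
Mean log2 signal of each transporter gene in VC-PC3 (horizontal axis) and in PDEF-PC3 (vertical axis), with 2 arrays per mean, lines of equal and of 2-fold different signal, and the mean of the highest olfactory receptor genes of each group (gold). The 30 genes near background in both groups crowd the lower left, and SLC6A15 stands alone at 3.70 against 8.71.

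RefSeq promoter windows (build GRCh38.p14) are shown for the members that changed at least 2-fold and had a single start in the table, as the sequences a reader may wish to set beside their change. They are SLC1A1 and SLC7A6, which were higher, and SLC38A2, which was lower. Windows were found for 46 of the 59 members, and not for SLC6A15, SLC7A2, SLC7A3, SLC7A11, SLC38A3, SLC6A6, SLC6A12, SLC7A13, SLC1A2, SLC6A2, SLC3A1, SLC7A4 and SLC6A3. Each run holds the 250 bases before the start, written 5′ to 3′ on the strand of the gene. SLC1A1 lies at chr9:4490218-4490467 (plus strand), SLC7A6 at chr16:68264276-68264525 (plus strand) and SLC38A2 at chr12:46372774-46373023 (minus strand). Capitals mark matches, on either strand, to CCGGAA or CCGGAT (cores that ETS factors are known to bind, the latter the form PDEF prefers), to TGATGNAA (an amino acid response element) or to CACGTG (an E-box).
SLC1A1: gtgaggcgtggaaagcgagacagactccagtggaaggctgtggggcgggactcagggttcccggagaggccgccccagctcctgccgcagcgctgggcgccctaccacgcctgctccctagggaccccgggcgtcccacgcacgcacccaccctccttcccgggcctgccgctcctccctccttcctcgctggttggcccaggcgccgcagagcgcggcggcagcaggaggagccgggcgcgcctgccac
SLC7A6: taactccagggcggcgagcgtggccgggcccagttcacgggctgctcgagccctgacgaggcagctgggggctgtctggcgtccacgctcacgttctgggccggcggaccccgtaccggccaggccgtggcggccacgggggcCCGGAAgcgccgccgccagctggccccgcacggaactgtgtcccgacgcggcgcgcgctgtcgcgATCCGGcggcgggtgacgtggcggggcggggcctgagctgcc
SLC38A2: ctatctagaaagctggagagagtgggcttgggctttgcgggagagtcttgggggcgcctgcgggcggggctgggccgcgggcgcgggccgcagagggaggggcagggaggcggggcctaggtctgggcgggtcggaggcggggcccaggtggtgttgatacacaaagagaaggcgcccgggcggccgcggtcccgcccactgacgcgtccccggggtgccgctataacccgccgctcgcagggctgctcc
The SLC7A6 window held CCGGAA from 107 to 102 bases before the start and CCGGAT on the opposite strand from 42 to 37 bases before it. The other windows held none of the 4 motifs. Of the 68 windows of members, 8.82% held CCGGAA, 2.94% CCGGAT, 2.94% TGATGNAA and 13.2% CACGTG, against 14.5%, 5.85%, 3.14% and 6.34% of 35116 windows of all genes. CCGGAA and CCGGAT share all letters but the last, and a match is a description of the letters only.

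SLC6A15, a sodium-driven carrier of branched-chain amino acids and proline that is known from neurons, had the largest change of the members. Its signals were 3.61 and 3.79 in VC-PC3, near background, and 8.68 and 8.74 in PDEF-PC3. The difference of 5.01 (standard error, SE, 0.096, adjusted p = 2.50e-06) stood at rank 8 of the rises among all 18417 genes. Because the VC-PC3 signals lay in the background range, the size of this and of other such changes is not exact. Of the 18 SLC6 genes, 3 were higher, 3 lower and 12 short of the threshold (26.7% of all genes higher, 24% lower). SLC6A11, a GABA transporter gene, rose by 0.81 (adjusted p = 0.00142), with signals of 5.92 and 6.15 against 5.14 and 5.32, near background, in VC-PC3. SLC6A17, a vesicular carrier of neurons, rose by 0.37 (adjusted p = 0.0103) while near background in both groups. Neither rise passed in every fit with 1 array left out. For SLC6A11 the adjusted p was 0.0530 without PDEF-PC3 replicate 2 and 0.0546 without VC-PC3 replicate 1, and for SLC6A17 it was 0.0544 to 0.0752 in the 4 such fits.

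Falls in the SLC6 family were led by SLC6A6, which takes up taurine. Its signals dropped from 9.39 and 9.30 in VC-PC3 to 8.31 and 8.20 in PDEF-PC3, a log2 fold change of -1.09 (SE 0.089, adjusted p = 0.000126). SLC6A9, a glycine transporter gene, had 6.68 and 6.72 in VC-PC3 and 6.04 and 5.60 in PDEF-PC3, where the lower array was near background. It fell by 0.88 (SE 0.15, adjusted p = 0.00302), with an adjusted p of 0.0929 without VC-PC3 replicate 1 and of 0.0994 without VC-PC3 replicate 2. The dopamine transporter gene SLC6A3 fell by 0.33 near background (adjusted p = 0.0237), and its adjusted p was 0.0919 to 0.145 in the fits that left out VC-PC3 replicate 1 or one of the PDEF-PC3 arrays. The creatine transporter gene SLC6A8, whose sequence is shared in part by pseudogene copies, did not pass the test in its own probe set. It had signals of 7.69 and 7.47 against 7.62 and 7.38, a log2 fold change of -0.08 with a 95% interval from -0.37 to 0.21. The 2 probe sets annotated jointly to SLC6A8 and such copies were left out and had higher signals in PDEF-PC3 (6.99 to 7.33) than in VC-PC3 (6.27 to 6.42), which cannot be assigned to either locus. SLC6A14, a broad carrier of neutral and cationic amino acids, lay at 2.69 to 2.82 in the 4 arrays. The other SLC6 genes (SLC6A2, SLC6A4, SLC6A5, SLC6A7, SLC6A12, SLC6A13, SLC6A16, SLC6A18, SLC6A19 and SLC6A20) were near background in both groups and did not pass.

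All 3 cationic amino acid transporter genes of the SLC7 family, whose proteins take up arginine, lysine and ornithine, were higher in PDEF-PC3. Among all genes 26.7% were higher. SLC7A3 had signals of 7.15 and 7.03 in PDEF-PC3 and of 4.70 and 4.05, near background, in VC-PC3 (log2 fold change 2.72, SE 0.20, adjusted p = 8.97e-05). SLC7A2 had 8.13 and 8.20 against 6.07 and 5.80, the second near background (log2 fold change 2.23, SE 0.11, adjusted p = 2.00e-05). SLC7A1, the form that most growing cells use, had 9.36 and 9.25 against 8.84 and 8.68. The groups did not overlap for any of these genes, nor did they for 74.7% of all genes. The rise of SLC7A1 was small, 0.55 on the log2 scale (SE 0.096, adjusted p = 0.00376). Its adjusted p was 0.0768 and 0.0584 without PDEF-PC3 replicate 1 and 2 and 0.0525 without VC-PC3 replicate 2. The homologues SLC7A4 and SLC7A14 were near background and did not pass.

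The light chains of the SLC7 family, which pair with an SLC3 heavy chain, changed in both directions. Of the 8 genes, 2 were higher and 2 lower, against 26.7% and 24% of all genes. SLC7A11, the cystine and glutamate exchanger that supplies cysteine for glutathione, went from 8.09 and 8.04 in VC-PC3 down to 6.56 and 6.76 in PDEF-PC3. The drop of 2.65-fold (log2 fold change -1.41, SE 0.098) had an adjusted p of 6.88e-05. SLC7A5, the main leucine carrier of tumour cells, had 9.77 and 9.69 against 9.25 and 9.25. Its partner SLC3A2, the heavy chain also known as CD98, had 9.69 and 9.64 against 9.24 and 9.24. Both arrays of PDEF-PC3 were thus below both of VC-PC3 for either chain, where 74.7% of all genes had no overlap between the groups. The log2 fold changes were -0.48 for SLC7A5 (SE 0.082, adjusted p = 0.00329) and -0.43 for SLC3A2 (SE 0.081, adjusted p = 0.00507). Without PDEF-PC3 replicate 1 or 2 the adjusted p was 0.0503 and 0.0522 for SLC7A5 and 0.0526 and 0.0544 for SLC3A2.

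Other light chains rose. SLC7A6, an exchanger of cationic for neutral amino acids, had signals of 8.93 and 8.89 in PDEF-PC3 and of 7.85 and 7.73 in VC-PC3. The log2 fold change was 1.12 (SE 0.087, adjusted p = 0.000104), while its neighbour SLC7A6OS had a log2 fold change of -0.005 (95% interval from -0.21 to 0.20). SLC7A8, a carrier of large and small neutral amino acids, rose by 1.02 (SE 0.093, adjusted p = 0.000201), from 4.90 and 4.91, near background, to 5.84 and 6.01. SLC7A7, which does the same exchange as SLC7A6 in kidney and gut, lay at 3.41 to 3.78 in the 4 arrays and did not pass. The same held for SLC7A9 and its heavy chain SLC3A1, the pair whose loss causes cystinuria, and for SLC7A13. SLC7A10 was above background in both groups, with a log2 fold change of -0.05 (95% interval from -0.30 to 0.20).

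**Figure D3:**
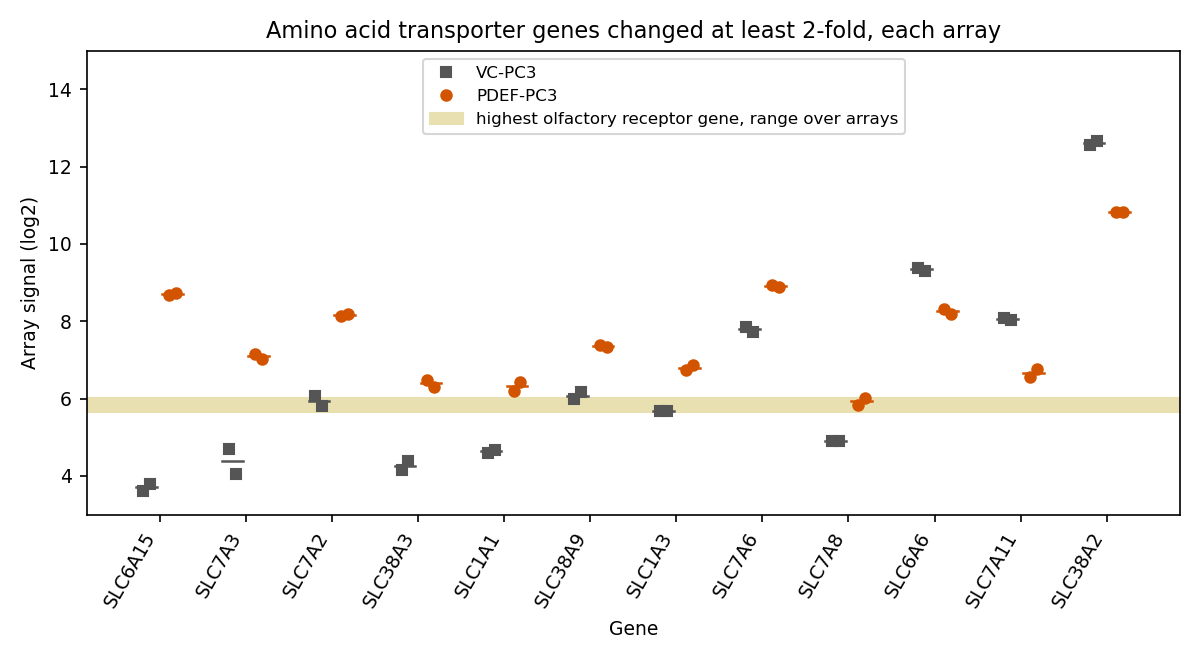
Log2 array signal (vertical axis) of the 12 transporter genes changed at least 2-fold (horizontal axis) in the 2 VC-PC3 arrays (squares) and the 2 PDEF-PC3 arrays (circles), with the group mean as a line and the range of the highest olfactory receptor gene over the 4 arrays as a band. SLC38A2 drops from 12.57 and 12.67 to 10.84 in both PDEF-PC3 arrays, and SLC6A15, SLC7A3, SLC38A3 and SLC1A1 rise from below the band to above it.

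Of the SLC38 genes, 6 of 12 were lower in PDEF-PC3, 2 were higher and 4 did not pass the test. Among all genes 24% were lower and 26.7% higher. SLC38A2, a system A carrier of glutamine, alanine and other small neutral amino acids that cells are known to induce when starved of them, had signals of 12.57 and 12.67 in VC-PC3. In PDEF-PC3 it had 10.84 in both arrays, a log2 fold change of -1.78 (SE 0.084, adjusted p = 1.65e-05) and a 3.43-fold lower level. SLC38A1, the other system A carrier above background, fell by 0.56 (SE 0.091, adjusted p = 0.00265), from 10.97 and 11.11 to 10.45 and 10.52. Its adjusted p was 0.0624 without PDEF-PC3 replicate 1 and 0.0535 without replicate 2. SLC38A6 fell by 0.98 (SE 0.088, adjusted p = 0.000191), from 7.49 and 7.51 to 6.46 and 6.59. SLC38A12 fell by 0.62, from 6.65 and 6.75 to 6.15 and 6.01 (adjusted p = 0.0018), and SLC38A10 by 0.51 (adjusted p = 0.00869), the latter with 0.130 and 0.123 without PDEF-PC3 replicate 1 and 2. SLC38A5 fell by 0.43 (adjusted p = 0.0114) while near background in both groups, with an adjusted p of 0.122 without either PDEF-PC3 array and of 0.0601 without VC-PC3 replicate 1.

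The SLC38 genes that rose act elsewhere in glutamine and arginine handling. SLC38A3, a system N carrier of glutamine and histidine best known from liver, kidney and brain, had signals of 6.48 and 6.30 in PDEF-PC3 and of 4.14 and 4.39, near background, in VC-PC3. The log2 fold change was 2.13 (SE 0.12, adjusted p = 2.93e-05). SLC38A9, the lysosomal carrier through which arginine is sensed by mTORC1, had 7.39 and 7.34 against 5.98 and 6.16 (log2 fold change 1.30, SE 0.095, adjusted p = 8.35e-05). SLC38A7, a lysosomal glutamine carrier, had 5.90 and 5.99 against 5.73 and 5.81, with a log2 fold change of 0.18 (95% interval from -0.03 to 0.38), and did not pass. SLC38A4, SLC38A8 and SLC38A11 were near background in both groups.

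In the SLC1 family 2 of the 5 glutamate carrier genes rose, as did 26.7% of all genes. The other 3 and both neutral exchangers did not pass the test. SLC1A1, the glutamate and cysteine carrier of epithelia and neurons, had signals of 6.20 and 6.43 in PDEF-PC3 and of 4.59 and 4.68, near background, in VC-PC3 (log2 fold change 1.68, SE 0.11, adjusted p = 4.54e-05). SLC1A3, a glutamate and aspartate carrier best known from glia, had 6.73 and 6.87 against 5.68 and 5.68, near background (log2 fold change 1.12, SE 0.089, adjusted p = 0.000112). SLC1A2, SLC1A6 and SLC1A7 were near background in both groups. SLC1A5, the glutamine exchanger of many tumours, had 8.32 and 8.34 in VC-PC3 and 8.29 and 8.19 in PDEF-PC3. Its log2 fold change of -0.09 had a 95% interval from -0.29 to 0.11. SLC1A4, an exchanger of alanine, serine and cysteine, had a log2 fold change of 0.045 (95% interval from -0.29 to 0.38) near background.

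None of the SLC36 and SLC43 genes with a probe set of their own changed 2-fold, and SLC43A3, whose probe set carries a second symbol, was not analysed here. SLC43A1, a facilitator of leucine uptake first described in prostate cancer, went from 7.82 and 7.78 down to 7.44 and 7.51 in PDEF-PC3. It fell by 0.33 (SE 0.082, adjusted p = 0.0170), and its adjusted p was 0.0673 to 0.0904 with any 1 array left out. SLC43A2, its relative, rose by 0.63 (SE 0.13, adjusted p = 0.00745), from 5.25 and 4.89 to 5.71 and 5.68, of which only the first PDEF-PC3 array was above background. Without PDEF-PC3 replicate 1 or 2 its adjusted p was 0.141 and 0.136. No SLC36 gene passed the test. The lysosomal proton-coupled carrier SLC36A1 had 6.50 and 6.55 in PDEF-PC3 against 6.36 and 6.27 (log2 fold change 0.21, adjusted p = 0.0820), with an adjusted p of 0.0313 among genes above the median level and of 0.0398 among genes above the gauge. SLC36A4, a carrier of proline and tryptophan, lay at 8.63 to 8.69 in the 4 arrays, with a 95% interval of its log2 fold change from -0.18 to 0.21. SLC36A2 and SLC36A3 were near background.

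Genes of other families linked to amino acid transport were examined next, among them carriers of the plasma membrane, the mitochondrial membrane and the lysosome. Of 24 listed genes 23 were measured, and 7 were higher, 4 were lower and 12 did not pass (47.8% called, against 50.7% of all genes). SLC16A10, which carries aromatic amino acids, rose by 2.24 on the log2 scale, from 5.88 and 5.95 to 8.27 and 8.03 (adjusted p = 1.67e-05). Its VC-PC3 signals lay near background. Of 10 carriers of the mitochondrial membrane, 4 were higher, 1 was lower and 5 did not pass the test (26.7% of all genes higher, 24% lower). SLC25A13, the aspartate and glutamate carrier, had 8.69 and 8.70 in PDEF-PC3 against 6.74 and 6.62. SFXN1, the serine carrier, rose by 1.34 and SLC25A38, the glycine carrier, by 0.81. CLTRN, a partner of SLC6 carriers in the kidney, fell by 1.18, from 6.46 and 6.75 to 5.22 and 5.64 (adjusted p = 0.00133), near background in PDEF-PC3, with an adjusted p of 0.0530 without PDEF-PC3 replicate 1 and of 0.0693 without VC-PC3 replicate 2. The lower calls of SLC15A3 (-0.445, near background), SLC25A22 (-0.32) and SLC66A1 (-0.27) were weak and were lost once any 1 array was left out. In those fits the log2 fold change ran from -0.575 to -0.315 for SLC15A3. It ran from -0.435 to -0.205 for SLC25A22 and from -0.34 to -0.20 for SLC66A1.

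Enzymes that make and use amino acids changed in both directions. Of 33 listed, 27 were measured, and 12 were higher, 7 lower and 8 did not pass (70.4% called, against 50.7% of all genes, and a median log2 fold change of 0.16). Of the 27 enzymes, 25 were above background in at least 1 group, against 10784 of all 18417 genes, so nothing is read from the larger share. BCAT1, which removes the amino group of branched-chain amino acids, had signals of 8.04 and 8.24 in PDEF-PC3 and of 4.42 and 4.70, near background, in VC-PC3 (log2 fold change 3.58, SE 0.13, adjusted p = 6.02e-06). GLDC, of the glycine cleavage system, rose by 2.37, GLUL, glutamine synthetase, by 1.69 and ASS1, which makes argininosuccinate, by 1.63. KYNU, an enzyme of tryptophan breakdown, fell from 7.19 and 7.23 to 3.91, near background, in both PDEF-PC3 arrays, and ODC1, which makes polyamines from ornithine, fell by 1.37. ASL, the enzyme after ASS1 in arginine synthesis, fell by 0.80, with an adjusted p of 0.161 and 0.164 without PDEF-PC3 replicate 1 and 2. GCLM and GCLC, the subunits that begin glutathione synthesis, fell by 0.58 (adjusted p = 0.00337) and 0.52 (adjusted p = 0.00633), of which GCLC was named after its values were seen. Their adjusted p was 0.0608 and 0.0520 without PDEF-PC3 replicate 1 and 0.0685 and 0.0930 without VC-PC3 replicate 1, and 0.0926 for GCLC without VC-PC3 replicate 2. Leaving out any 1 array left fewer enzyme genes lower, as it did among all genes.

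Genes through which cells sense amino acids also changed in both directions. Of 37 listed, 34 were measured, and 11 were higher, 9 lower and 14 did not pass (58.8% called, against 50.7% of all genes). Nothing is read from that share either, since nearly all of them were above background. RRAGD, a Rag GTPase that brings mTORC1 to the lysosome, had signals of 8.51 and 8.57 in PDEF-PC3 and of 5.24 and 5.06, near background, in VC-PC3 (log2 fold change 3.39, SE 0.096, adjusted p = 3.50e-06). Its relatives RRAGA, RRAGB and RRAGC did not pass. SESN1 and SESN3, sestrins that restrain mTORC1, rose by 2.53 (from near background) and 2.36, and the scaffold gene LAMTOR3 by 0.69. CASTOR1, the cytosolic arginine sensor, fell from 7.52 and 7.39 to 5.96 and 6.09 (log2 fold change -1.43, SE 0.095, adjusted p = 5.50e-05), opposite to SLC38A9. SEC13, which serves GATOR2 as well as vesicle coats, fell by 1.11 and EIF2AK4, the kinase GCN2, by 0.60. SESN2 fell by 0.47, with an adjusted p of 0.0551 to 0.0966 once any 1 array was left out. With any 1 array left out, fewer sensing genes were higher and fewer were lower, which held for all genes as well.

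**Figure D4:**
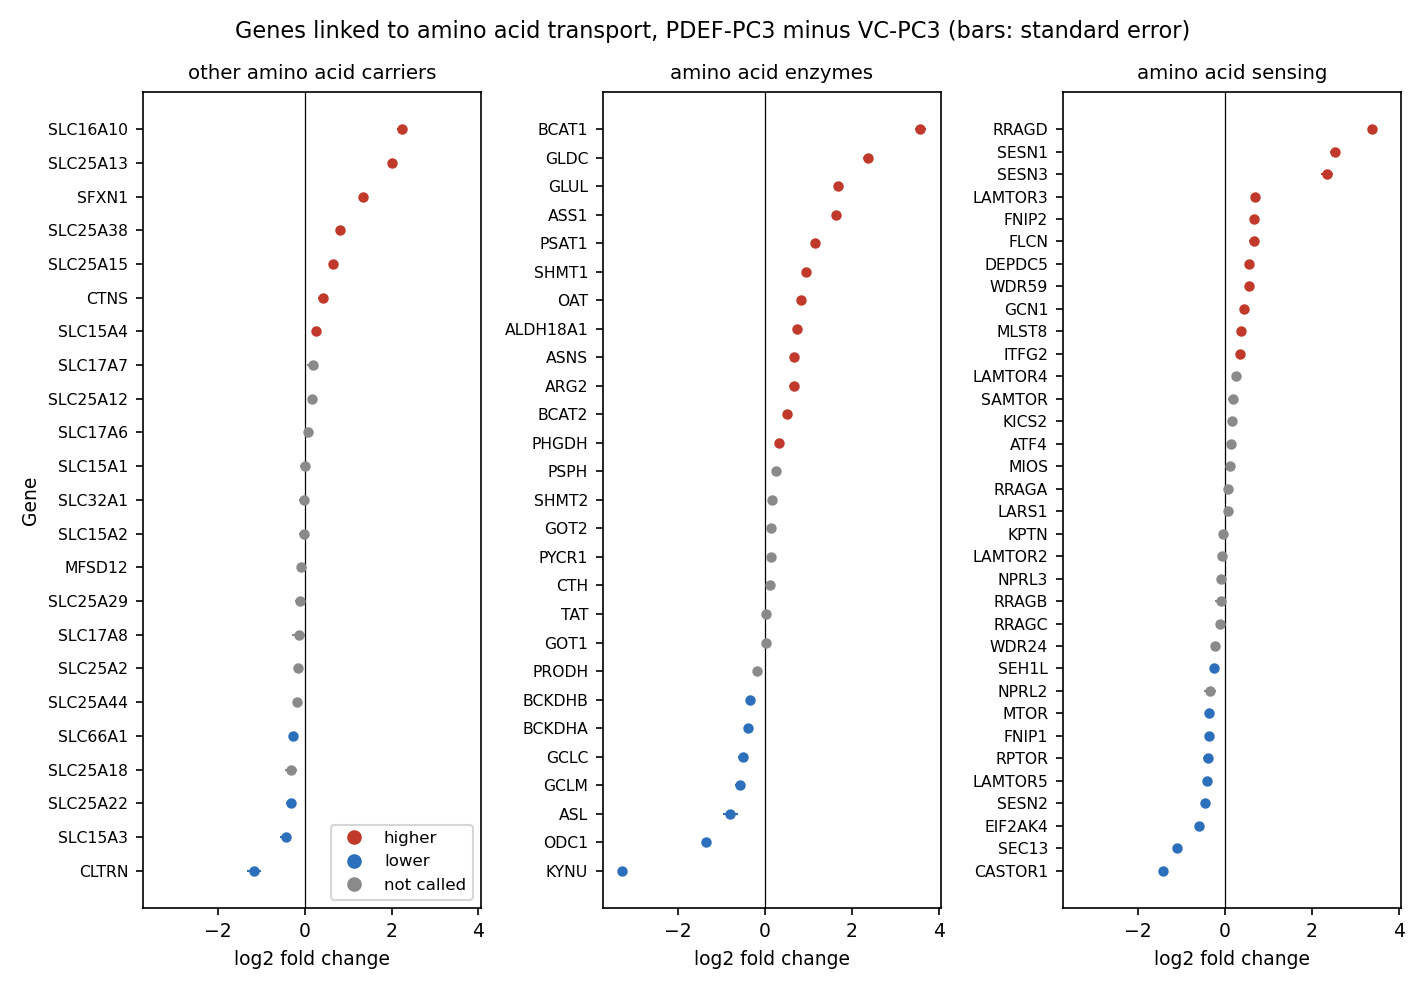
Change on the log2 scale, PDEF-PC3 minus VC-PC3 (horizontal axis), of the measured genes (vertical axis) of 3 lists linked to amino acid transport. Bars are standard errors of the change from 2 arrays a group. Genes higher at an adjusted p under 0.05 are red, led by BCAT1 at 3.58 and RRAGD at 3.39, lower ones are blue, down to KYNU at -3.30, and the rest are grey.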

How the data were processed

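RNA of 4 cell samples was measured on Affymetrix HuGene-1.0-st-v1 arrays. The authors processed them with Transcriptome Analysis Console per the labels and deposited log2 signals of 33297 probe sets. The log base was taken from their range. The software version, the background correction and how arrays were scaled were not given in the sources used here. Array medians were 5.41 to 5.46, and the values were used as deposited. Of the probe sets, 19460 carried 1 symbol, 1754 carried several and were left out, among them 4 with a member's prefix, so that SLC43A3 was not analysed here, and 12083 are unnamed here. Symbols were updated through the GRCh38.p14 gene table, where 99.8% matched. SLC1A5 and SLC7A14 had several probe sets.

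Genes were compared with limma 3.58.1 in R 4.3.3 (lmFit and eBayes, two-sided, 2 residual and 4.23 prior degrees of freedom), with Benjamini-Hochberg adjustment over all 18417 genes. No filter was applied. The number of arrays limits the precision, as exact permutation of 2 against 2 allows no two-sided p below 0.333. The fit was tested on simulated data.

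The members, the 3 other lists and the markers were chosen with earlier results of these data known. Named are, per family, the members that passed, a fixed set of known carriers, and from each other list the 4 genes with the largest changes in each direction. Alternatives were quantile normalization, median centring, filters on dim genes, means over probe sets, a variance trend, the replicate number as a block, and each array left out. They were applied to the named genes of the other lists after seeing the data. Same-numbered arrays did not deviate together across genes (r = 0.022), and no label pairs them. Promoter windows were taken from RefSeq.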

Additional observations from a re-analysis of the deposited data

How the results depend on the processing

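Of the 26 members that passed the test, 14 kept their direction and their side of the threshold in every alternative that tested them, and 12 lost the threshold in at least 1, in each case with the same sign. The 14 include all 12 members changed at least 2-fold. Leaving out 1 array gave 9 to 11 higher and 6 to 11 lower members, 0 to 1 lower genes among the other carriers, 3 to 4 lower enzyme genes, and 6 to 9 higher and 3 to 6 lower sensing genes. Among genes above the median level, 7 members were higher, of 22 tested, and 2 other carriers were lower, of 12 tested, which follows from fewer genes being tested. With the replicate block 2 other carriers were lower and 12 members were lower. The block moved no other count by over 1.5 times, and SLC6A3 had an adjusted p of 0.0552. Median centring gave 18 lower members. Among all 18417 genes it gave 5589 lower, against 4419 in the main fit, and moved their median log2 fold change from -0.05 to -0.12. Nothing is therefore read from the larger count of members. The members gained were SLC38A8, SLC6A4, SLC6A5, SLC7A4 and SLC7A7, with adjusted p-values of 0.0220 to 0.0455 from limma. Quantile normalization added SLC7A4 as lower (adjusted p = 0.0490) and SLC6A12 as higher (adjusted p = 0.0311). With 1 array left out, the log2 fold change ran from -0.425 to -0.035 for SLC3A1 and from -0.43 to -0.04 for SLC6A18. Signs turned only among members that did not pass. After median centring this was so for SLC1A4 (-0.025), SLC36A4 (-0.055), SLC6A19 (-0.060) and SLC7A14 (-0.025). After quantile normalization it was so for SLC1A2 (0.016), SLC36A4 (-0.045), SLC38A4 (0.030), SLC38A11 (0.051), SLC6A16 (0.0088) and SLC7A13 (0.041). With means over probe sets SLC7A14 had -0.065. With 1 array left out, log2 fold changes ran from -0.10 to 0.19 for SLC1A4, -0.02 to 0.17 for SLC36A2, -0.01 to 0.04 for SLC36A4, -0.185 to 0.085 for SLC38A4, -0.075 to 0.015 for SLC38A11, -0.20 to 0.04 for SLC6A8, -0.165 to 0.095 for SLC6A13, -0.15 to 0.13 for SLC6A16, -0.10 to 0.12 for SLC6A19, -0.055 to 0.045 for SLC7A6OS, -0.165 to 0.065 for SLC7A10, -0.095 to 0.075 for SLC7A13 and -0.055 to 0.145 for SLC7A14. Beyond the filters, the cause was not tested.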
